A study of Mus musculus with 6 samples.

Results

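The genes described here are 9 members of the helix-loop-helix network: the Id protein genes Id1, Id2 and Id3, the E protein genes Tcf3, Tcf4 and Tcf12, and the basic helix-loop-helix repressor genes Bhlhe40, Msc and Hes1. They were chosen by symbol, matched to NCBI gene numbers, and all 9 were found among the 16749 genes that the tables list. RNA came from CD8+ T cells that were sorted by flow cytometry from the iLN, as the labels write the tissue, of C57BL/6 mice. All the mice bore tumors and had been given oxaliplatin, a platinum drug that damages DNA, according to the series title. The 3 control libraries, here WT, came from Id2f/f mice, whose Id2 alleles are floxed and intact for want of Cre. The 3 knockout libraries came from Cd4creId2f/f mice. The Cd4-Cre transgene acts in developing T cells before the CD4 and CD8 lineages part, and only the knockout group carried it, so an effect of Cre cannot be told apart from the loss of Id2. The labels give no age, sex, dose or tie between libraries and animals, so the spread behind each p-value is that of these libraries and could be technical. Cd4-Cre also deletes in CD4 T cells, so other T cells of the knockout mice lacked Id2 as well.

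E proteins are transcription factors that pair through a helix-loop-helix domain and bind the E box, CANNTG, through a basic region beside it. Id proteins have the helix-loop-helix domain without the basic region, so an E protein paired with an Id protein cannot bind DNA. In CD8+ T cells Id2 is known for its role in effector cells and Id3 for its role in naive and memory cells, and both restrain E protein activity. Bhlhe40, Msc and Hes1 bind DNA themselves and repress transcription.

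The study compared the genotypes in a design of 3 against 3 libraries, and the comparison asks how the network stood once Id2 was deleted. Id2 was nearly absent from the knockout libraries while Id3 was 3.66-fold higher in mean FPKM. The summed levels of the Id genes lay in overlapping ranges only through WT replicate 1. Without that library the WT sums were under all 3 knockout sums, at a knockout over WT ratio of 1.42. The ratio of Tcf12 to Tcf3 was about 2 in every knockout library and about 1 in every WT library. Neither gene was called, and the ratio was formed after both had been seen to lie apart and was not tested. All 3 repressor genes were called lower, beside 8.77% of the genes tested, and the call for Hes1 was lost when any of 4 libraries was left out. Msc and Hes1 reached the level needed for testing only through the WT libraries, which already implied their direction. Of the repressors, only Bhlhe40 was free of this limit.

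The promoters of Id2 and Id3 are shown because the Id results turn on these genes. Each is the 250 bases before the gene's start in RefSeq (GRCm38.p6, the assembly of mm10), 5' to 3' on the gene's strand, with E boxes (CANNTG, which reads alike on both strands) in capitals. The Id2 stretch lies at chr12:25096093-25096342 on the minus strand and the Id3 stretch at chr4:136143572-136143821 on the plus strand.
Id2: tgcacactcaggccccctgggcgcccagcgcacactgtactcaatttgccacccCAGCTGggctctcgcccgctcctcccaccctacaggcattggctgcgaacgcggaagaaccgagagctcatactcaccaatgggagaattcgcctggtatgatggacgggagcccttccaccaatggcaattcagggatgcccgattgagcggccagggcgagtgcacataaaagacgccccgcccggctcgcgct
Id3: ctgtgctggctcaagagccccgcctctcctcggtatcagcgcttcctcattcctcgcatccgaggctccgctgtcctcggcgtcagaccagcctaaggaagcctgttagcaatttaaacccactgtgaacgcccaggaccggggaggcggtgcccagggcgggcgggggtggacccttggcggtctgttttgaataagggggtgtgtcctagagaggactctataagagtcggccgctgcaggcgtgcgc
The Id2 stretch holds 1 E box, CAGCTG, whose first base is at -196 from the start, and the Id3 stretch holds none. Of 32851 RefSeq promoters, 66.2% hold a CANNTG match in the same 250 bases, and 13% hold CAGCTG. Neither stretch holds the N box CACNAG or its reverse complement CTNGTG, to which repressors of the Hes kind bind and which 36.7% of promoters hold. Promoters of Tcf3 and Tcf12 were also matched in the table. Id1, Bhlhe40, Msc and Hes1 were not matched there.

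Libraries held 7699181 to 8495123 expected counts, and libraries of a group differed beyond sampling noise. Levels are given as FPKM, reads scaled by transcript length and by library size, which allows genes to be compared by level. Means are given ± SD with n = 3. Fold changes are knockout over WT from edgeR on the rounded counts, with p-values adjusted over the 10890 genes that had at least 1 FPKM in at least 3 libraries, and a gene is called at an adjusted p under 0.05. Of those 10890 genes, 11.9% were called, 3.14% higher and 8.77% lower in knockout. Of the 9 genes, Tcf4 was under that minimum and 8 were tested. Msc and Hes1 passed it only through the WT libraries, so their being tested already implied a lower level in knockout. Id3 was called higher and Id2, Bhlhe40, Msc and Hes1 lower, while Id1, Tcf3 and Tcf12 were not called. The FPKM of the groups did not overlap for 7 of the 9 genes, all but Id1 and Tcf4, against 32.1% of all genes tested. This count is not like for like with that share. It includes Id2, which was deleted, and Msc and Hes1, tested only through WT, and the 9 include Tcf4, which was not tested. Of these 7, Id3 and Tcf12 were higher in knockout, as were 15.3% of all genes tested, and 5 were lower, as were 16.8%.

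The labelled cell type was checked against its markers. Cd8a had a mean of 212 ± 10.9 FPKM in WT against 214 ± 17.8 in knockout, Cd3e at 303 ± 28.8 and 348 ± 23.8, and Cd4 at 1.08 to 2.97 over the libraries, and Trac and Trbc2 were not listed. All 6 markers of CD4 and regulatory T cells were listed, with sums of 62.7 to 79.5 FPKM in WT and 90.6 to 96.2 in knockout, most of it from Ctla4. Of the 5 tested, Ikzf2 (log2 fold change 1.32, adjusted p = 0.0150, edgeR) and Ctla4 (0.49, 0.0222) were called higher. Ikzf2 reached the level needed for testing only through the knockout libraries, which already implied its direction. Cd4, at 2.36 ± 0.991 FPKM in WT and 1.48 ± 0.56 in knockout, was not called (-0.69, 0.269, edgeR). Foxp3 stood at 3.55 ± 0.148 and 3.65 ± 0.576 FPKM (0.934), and Cd40lg at 4.34 ± 1.24 and 4.30 ± 1.04 (0.974). Zbtb7b, which was not tested, was lower in every knockout library, at 0.637 ± 0.142 and 0.193 ± 0.0862 FPKM. In bulk RNA, fewer cells of a type and less RNA per cell cannot be told apart. The libraries differed in transcripts of B cells. The summed FPKM of 14 B cell markers, all of them listed, came to 667, 2178 and 2562 in WT against 501, 2069 and 452 in knockout. Most of each sum was Cd74, at 530, 1785 and 2064 FPKM in WT and 399, 1676 and 354 in knockout. Cd79a, the next most abundant, stood at 42.74, 151.29 and 195.82 against 26.33, 150.58 and 26.65. WT replicate 1 and knockout replicates 1 and 3 were thus low and the rest high. Conventional dendritic cells, which express Id2, had 6 of 7 markers listed, with sums of 23.3 to 26.4 FPKM in WT and 3.58 to 6.34 in knockout. Of the 4 tested, Batf3, Itgax and Zbtb46 were called lower and Xcr1 was not, at 2.97 ± 0.636 and 2.81 ± 0.691 FPKM (adjusted p = 0.836, edgeR). Batf3 and Itgax reached the level needed for testing only through the WT libraries, which already implied their direction. Zbtb46 also reached it in knockout replicate 2, at 1.6 FPKM. The listed markers Flt3 and Cd209a were at or near 0 (up to 0.52 and 0.34 FPKM) and Clec9a was not listed. The 7 plasmacytoid dendritic cell markers summed to 243 to 291 FPKM in WT and 160 to 239 in knockout, with Bst2 the most abundant. Of the 5 tested, Bst2 and Runx2 were called lower, and Irf8, at 16.0 ± 4.33 and 14.8 ± 2.97 FPKM, was not called (adjusted p = 0.721, edgeR). Ccr9 lay higher in every knockout library, at 13.9 ± 1.48 and 19.5 ± 3.32 FPKM, without being called (0.0688), as did Siglech, which was not tested. The 7 markers of NK and innate lymphoid cells summed to 183 to 243 and 186 to 203 FPKM, with Ncr1 at 0 in WT and at most 0.18 in knockout. The part of dendritic, CD4 T and innate lymphoid cells in the results was not tested, and B cells were entered as a covariate.

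**Figure D1:**
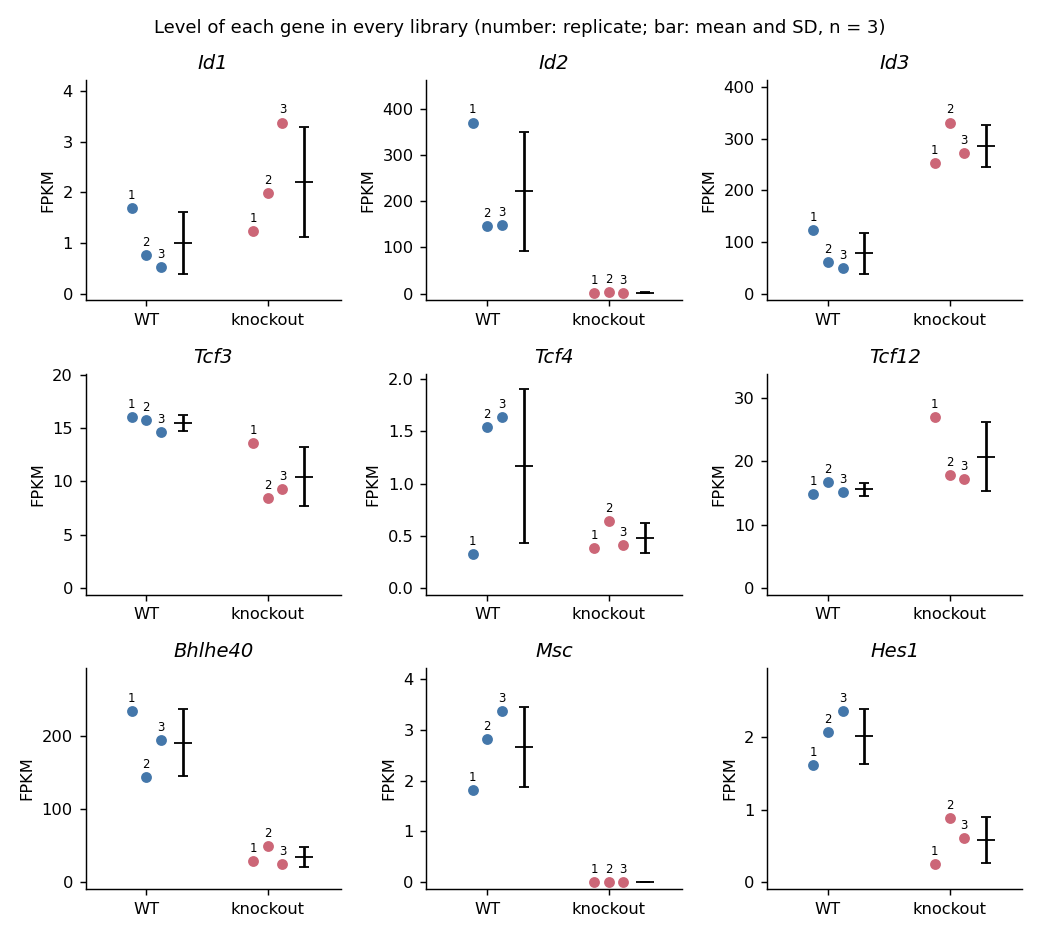
FPKM (linear axis from 0, a separate scale for each gene) of the 9 genes in every library, with the replicate number above each point and the mean and SD of 3 libraries beside them. Id2, Bhlhe40, Msc and Hes1 are lower in all 3 knockout libraries and Id3 is higher in all 3, while Id1 and Tcf4 overlap between the groups.

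Id2, the deleted gene, lies on mm10 chromosome 12 from 25093799 to 25096092 on the minus strand. It stood at 371 FPKM in WT replicate 1, 147 in replicate 2 and 149 in replicate 3, against 1.67, 2.64 and 2.12 in knockout replicates 1 to 3. WT replicate 1 was thus far above the other WT libraries, and the groups did not come near each other. The knockout level was 0.964% of the WT mean, from 64 counts against 7152, and the fitted log2 fold change was -6.72 (SE 0.474, adjusted p = 8.47e-05, edgeR). Without WT replicate 1 it was -6.08. Of the genes tested, 3 had a lower fitted fold change. The labels do not say which exons are floxed, and reads outside them would still be counted.

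Id3 lies on chromosome 4 from 136143822 to 136145392 on the plus strand. Its level was 124, 61.4 and 49.5 FPKM in WT replicates 1 to 3 and 253, 332 and 273 FPKM in the knockout libraries. The lowest knockout library was above the highest WT library, which was again replicate 1, the library with the most Id2. Id3 rose by 1.84 on the log2 scale (SE 0.299, adjusted p = 0.00354 by edgeR), the 23rd largest rise among the genes tested. The call held without any 1 of the 6 libraries, with log2 fold changes from 1.59 to 2.39. Adding the B cell marker level to the model gave 1.73 (adjusted p = 0.00204).

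Id1, which many cell types induce in answer to bone morphogenetic proteins, lies on chromosome 2 from 152736251 to 152737410 on the plus strand. It was scarce, with 23 counts in all WT libraries and 47 in all knockout libraries. Levels of 1.69, 0.77 and 0.53 FPKM in WT compared with 1.23, 1.99 and 3.38 FPKM in knockout. WT replicate 1 lay above knockout replicate 1, so the groups overlapped. The log2 fold change was 1.11 (SE 0.543, adjusted p = 0.221, edgeR), and none of 13 alternatives brought it past the threshold. Without WT replicate 1 it was 1.75 (adjusted p = 0.0963), and without knockout replicate 3 it was 0.66 (0.594). Id4, the remaining gene of the family, was not listed for any library.

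Added together, the Id genes came to 496, 209 and 199 FPKM in WT replicates 1 to 3 and to 256, 336 and 278 FPKM in knockout. The means were 301 ± 169 and 290.1 ± 41.4 FPKM, a ratio of 0.963. This nearness rested on WT replicate 1. Without it the ratio was 1.42, and the other WT libraries were both under all 3 knockout libraries. The make-up of the sum differed between the groups in every library. Id2 took 70.2% to 74.9% of the Id transcripts in WT and 0.652% to 0.785% in knockout, and Id3 took 24.9% to 29.4% and 98% to 98.9%. These sums are levels of RNA and say nothing of protein.

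**Figure D2:**
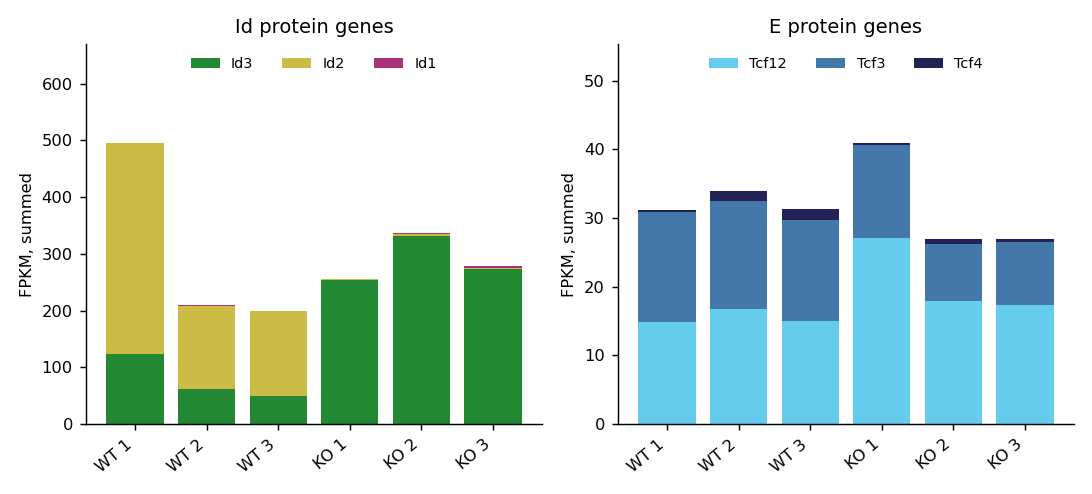
Summed FPKM of the Id genes (left) and of the E protein genes (right) in each library, with each bar divided by gene. The Id sum is mostly Id2 in WT and nearly all Id3 in knockout (KO), and the E protein sum lies between 26.9 and 41 FPKM in all 6 libraries.

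None of the E protein genes was called. Tcf3 encodes E2A, the source of the splice forms E12 and E47, and lies on chromosome 10 from 80409541 to 80433976 on the minus strand. WT libraries held 16, 15.7 and 14.6 FPKM of it, and knockout libraries 13.6, 8.4 and 9.24 FPKM. All knockout libraries were under all WT libraries, replicate 1 by the least. The log2 fold change was -0.58 (SE 0.184, adjusted p = 0.0695, edgeR). It passed the threshold in 5 of 14 alternatives. These were DESeq2 (adjusted p = 0.0307), the fit without a filter (0.0445, edgeR) and a block for replicate number (0.0403, edgeR). The others were B cell marker level in the model (-0.76, 0.0222, edgeR) and leaving out knockout replicate 1 (-0.83, 0.0109, edgeR). It did not pass with limma (0.0776 and 0.0797) or when any other library was left out (0.127 to 0.247, edgeR). The tables give 1 value per gene, so E12 and E47 could not be separated.

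Tcf12, which encodes HEB, the usual partner of E2A in thymocytes, lies on chromosome 9 from 71844252 to 72111893 on the minus strand. Its level in WT was 14.8, 16.8 and 15.1 FPKM, and its level in knockout 27, 17.9 and 17.3 FPKM. Knockout replicate 1 was far above the rest, and the other knockout libraries were just above WT. The log2 fold change was 0.4 (SE 0.175, adjusted p = 0.177, edgeR). Without knockout replicate 1 it was 0.14 (adjusted p = 0.467). The transcript length that the authors' tables give for Tcf12 ranged over 2.32% between libraries, and that for Tcf3 over 0.0734%.

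The relation of these 2 genes was also read within each library. Tcf12 divided by Tcf3, both in FPKM, was 0.923, 1.07 and 1.03 in WT replicates 1 to 3 against 1.99, 2.13 and 1.87 in knockout. The group means were 1.01 ± 0.0748 and 1.995 ± 0.128, a ratio of 1.98, and it stayed between 1.9 and 2.05 without any 1 library. This ratio was computed after both genes had been seen to lie apart, and it was given no test. The summed FPKM of the 3 E protein genes was 32.2 ± 1.59 in WT and 31.6 ± 8.14 in knockout. Dividing the Id sum by the E protein sum gave 15.9, 6.14 and 6.35 in WT, which overlapped the 6.24, 12.5 and 10.3 in knockout.

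Tcf4, which encodes E2-2, the E protein of plasmacytoid dendritic cells and of B cells, lies on chromosome 18 from 69343429 to 69687967 on the plus strand. It was low, at 0.32, 1.54 and 1.64 FPKM in WT and 0.38, 0.64 and 0.41 FPKM in knockout. WT replicate 1 was the lowest of all 6 libraries. In the fit without a filter, where 9.29% of 16693 genes were called (2.57% higher and 6.72% lower), its log2 fold change was -1.28 (SE 0.428, adjusted p = 0.0719, edgeR). Without WT replicate 1 it was -1.71 (adjusted p = 0.00121), and without knockout replicate 2 it was -1.54 (0.0406). Leaving out any other library did not bring it past the threshold (adjusted p from 0.227 to 0.324, edgeR). Among the 3 libraries of low B cell marker sum, Tcf4 stood at 0.32 FPKM in the WT library and at 0.38 and 0.41 in the knockout libraries. Among the 3 libraries of high sum, it stood at 1.54 and 1.64 in WT and 0.64 in knockout. Once the B cell marker level was added to the model, the fold change of Tcf4 was -0.48 on the log2 scale (adjusted p = 0.592, edgeR). Of the plasmacytoid markers, Bst2 and Runx2 were called lower, and Irf8, Ly6d and Ccr9 were not called. Siglech lay between 0.24 and 0.7 FPKM, and both Siglech and Ccr9 were higher in every knockout library. The part of plasmacytoid cells in the level of Tcf4 was not tested.

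**Figure D3:**
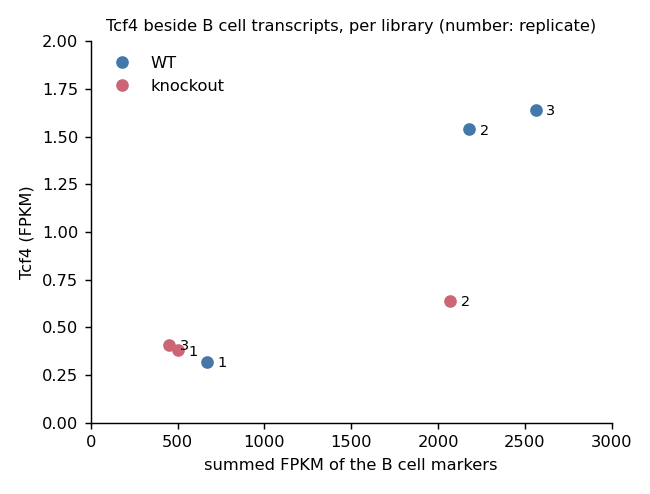
Tcf4 in FPKM (vertical) against the summed FPKM of 14 B cell markers (horizontal) in each library, with the replicate number beside each point. The 3 libraries with B cell sums of 452, 501 and 667 hold at most 0.41 FPKM of Tcf4, and among the 3 from 2069 to 2562 the knockout library holds the least, 0.64.

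Of the repressors, Bhlhe40 was by far the most abundant. It encodes DEC1, a repressor that binds class B E boxes and is known in T cells for promoting cytokine production, and lies on chromosome 6 from 108660629 to 108666925 on the plus strand. Its level was 235, 144 and 195 FPKM in WT and 29.16, 50.01 and 25.04 FPKM in knockout. The highest knockout library was well under the lowest WT library. Bhlhe40 fell 5.63-fold (log2 fold change -2.49, SE 0.261, adjusted p = 0.000394, edgeR). The call held without any 1 library, between -2.82 without knockout replicate 2 and -2.28 without WT replicate 1. It also held with the B cell covariate (-2.44, adjusted p = 0.000191, edgeR). Its relative Bhlhe41 was under 1 FPKM in all 6 libraries, 0.45 ± 0.0866 in WT and 0.467 ± 0.315 in knockout, and was not tested.

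Msc encodes musculin, a repressor that can pair with E proteins, and lies on chromosome 1 from 14753344 to 14756089 on the minus strand. In WT its level was 1.81, 2.81 and 3.37 FPKM, from 26, 41 and 48 counts. It had no count in any of the 3 knockout libraries. Set against a floor of 3 counts over the knockout group, Msc was at least 35.7-fold lower per total count. This bound leaves out the spread between libraries. In the separate edgeR fit Msc was called lower (adjusted p = 0.000647). Its call held without any 1 library (adjusted p between 0.000830 and 0.0049) and with the B cell covariate (0.000706, edgeR).

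Hes1, the classical repressor target of Notch, lies on chromosome 16 from 30065357 to 30067796 on the plus strand. Its WT levels of 1.61, 2.07 and 2.36 FPKM compared with 0.25, 0.88 and 0.61 FPKM in knockout. The groups did not overlap, but the counts were few, 75 against 20, a ratio per total count of 3.49 with an exact 95% interval of 2.11 to 6.04 that covers counting error only. The log2 fold change was -1.80 (SE 0.426, adjusted p = 0.0226, edgeR). The call was lost without WT replicate 2 (-1.79, adjusted p = 0.0565) or 3 (-1.68, 0.0906), without knockout replicate 1 (-1.44, 0.0662) or 3 (-1.83, 0.0854), and with the B cell covariate (-1.52, 0.0571).

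**Figure D4:**
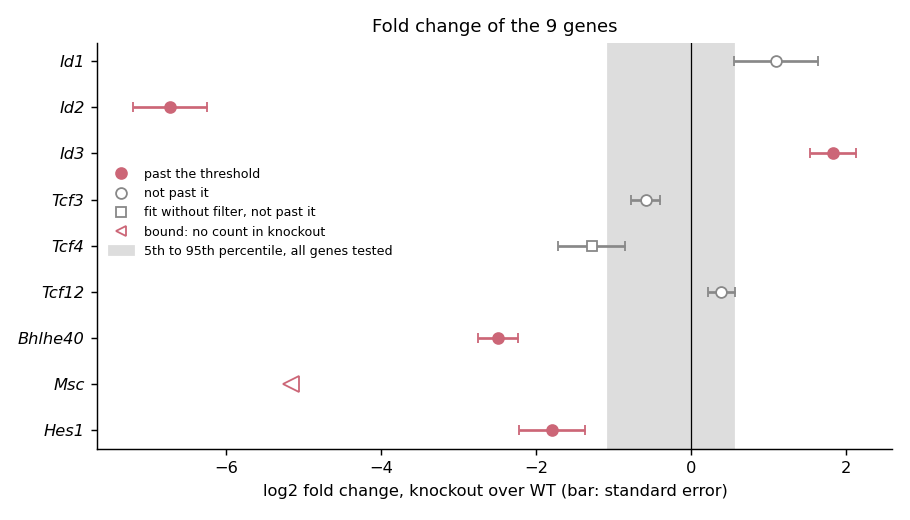
Log2 fold change (knockout over WT) of the 9 genes, with its standard error for all but Msc. Circles are filled where the gene was called. The square is Tcf4 from the fit without a filter. The open arrowhead is the bound for Msc, which was called. The grey band runs from -1.07 to 0.56, the 5th to the 95th percentile of all genes tested. Of the 8 genes tested, Tcf3 and Tcf12 lie inside the band and the others outside it, of which Id1 was not called. Tcf4, not called either, comes from another fit than the band and is not to be read against it.

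In WT the order of the levels was Id2, Bhlhe40, Id3, Tcf12, Tcf3, Msc, Hes1, Tcf4 and Id1. The mean of Id2 was 222 ± 129 FPKM and that of Bhlhe40 191 ± 45.5, within their spread, as were Tcf12 at 15.5 ± 1.06 and Tcf3 at 15.5 ± 0.732. The last 4 lay between 0.997 and 2.66 FPKM. In knockout the order was Id3, Bhlhe40, Tcf12, Tcf3, Id1, Id2, Hes1, Tcf4 and Msc. Id3, at 286 ± 40.8 FPKM, stood apart from Bhlhe40 at 34.7 ± 13.4, and Id1 at 2.2 ± 1.09 and Id2 at 2.14 ± 0.485 were within their spread.

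Around these genes, 4 wider lists were read: further helix-loop-helix partners and repressors, cofactors and turnover factors of E and Id proteins, the Notch pathway, and the remaining basic helix-loop-helix families. The partners and repressors were mostly silent, with 14 of 32 listed, 18 not, and 2 tested. Hes6, which antagonises Hes1, had a level of 27.6 ± 1.34 FPKM in WT against 27.3 ± 1.83 in knockout (log2 fold change -0.03, SE 0.122, adjusted p = 0.910, edgeR). Lyl1, a partner of E proteins in blood cells, had levels of 0.52, 2.98 and 4.17 FPKM in WT against 0.14, 3.86 and 0.99 in knockout (adjusted p = 0.671), with its low values in the libraries of low B cell marker sum. By edgeR, DESeq2 and limma 0 of the 2 were called (unadjusted p = 0.460 for Lyl1 and 0.824 for Hes6, edgeR), so 0 had an unadjusted p under 0.05. The median of the 2 was -0.34, against 0.01 over all genes tested.

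Of 23 cofactors and turnover factors tested, 2 were higher and 3 lower, with a median log2 fold change of -0.06. Cdc20, an activator of the anaphase-promoting complex, fell from 45.4 ± 15.7 to 11 ± 0.713 FPKM (log2 fold change -2.06, adjusted p = 0.000394, edgeR). The histone deacetylase gene Hdac2 fell from 14.9 ± 1.77 to 10.3 ± 0.990 FPKM and the acetyltransferase gene Kat2a rose from 22.8 ± 0.967 to 30.2 ± 3.37. Both calls were lost without any 1 of the 6 libraries, at adjusted p from 0.0514 to 0.199 for Hdac2 and from 0.0671 to 0.109 for Kat2a. Huwe1, a ubiquitin ligase gene, rose from 14.5 ± 0.771 to 18.5 ± 1.02 FPKM and lost its call in 5 of these 6 fits, all but that without knockout replicate 2 (0.0637 to 0.178). The coactivator gene Ep300 stood at 6.27 ± 0.342 and 6.68 ± 0.232 FPKM (adjusted p = 0.702).

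Of 27 Notch pathway genes tested, 2 were higher and 1 lower, with a median of 0.11. Maml2, which encodes a coactivator of Notch, rose from 19.3 ± 2.53 to 27.8 ± 1.47 FPKM. The call was lost without WT replicate 3 (adjusted p = 0.0560) or knockout replicate 3 (0.0612). Dtx3, of the deltex family of ubiquitin ligases, rose from 17.3 ± 0.43 to 24.9 ± 3.78 FPKM, and its call held without knockout replicate 1 but without none of the other 5 libraries (0.0569 to 0.16). Adam17, which encodes a protease that sheds surface proteins, fell from 22.3 ± 3.75 to 14.2 ± 2.55 FPKM, a call lost on leaving out WT replicate 3 (0.0851) or either knockout replicate 1 (0.0743) or 3 (0.105). The receptor gene Notch1 stood at 11.6 ± 0.92 and 13.3 ± 2.19 FPKM (adjusted p = 0.461), Notch2 at 11.4 ± 1.52 and 10.4 ± 2.15 (0.511), and Rbpj, whose protein binds DNA for Notch, at 21.9 ± 2.64 and 20.1 ± 1.27 (0.448, edgeR).

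Of 27 genes of the other basic helix-loop-helix families tested, 0 were higher and 4 lower, with a median of 0.11 and a mean of -0.08. By edgeR, 3 were higher at an unadjusted p under 0.05 (Mga, Ncoa2 and Ncoa3). DESeq2 called 1 higher, Ncoa3 (log2 fold change 0.34, adjusted p = 0.0230), and limma 0. Hif1a and Epas1, the genes of the hypoxia-inducible factors HIF-1 alpha and HIF-2 alpha, fell from 75.9 ± 4.12 to 44.9 ± 6.5 FPKM (log2 fold change -0.77, adjusted p = 0.00199, edgeR) and from 4.91 ± 1.24 to 1.73 ± 0.274 FPKM (-1.52, adjusted p = 0.00197). The Max partner genes Mxd3 and Mxi1, whose proteins oppose Myc, fell from 29.2 ± 7.82 to 12.7 ± 2.56 and from 3.98 ± 0.712 to 2.09 ± 0.118 FPKM. These 4 calls held without any 1 library. Myc stood at 51.8 ± 9.39 and 62.3 ± 0.403 FPKM (adjusted p = 0.296), and was called higher without WT replicate 1 (log2 fold change 0.45, adjusted p = 0.0289, edgeR). The share called in each of the 3 lists with calls was 21.7%, 11.1% and 14.8%, beside the 11.9% of all genes.

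**Figure D5:**
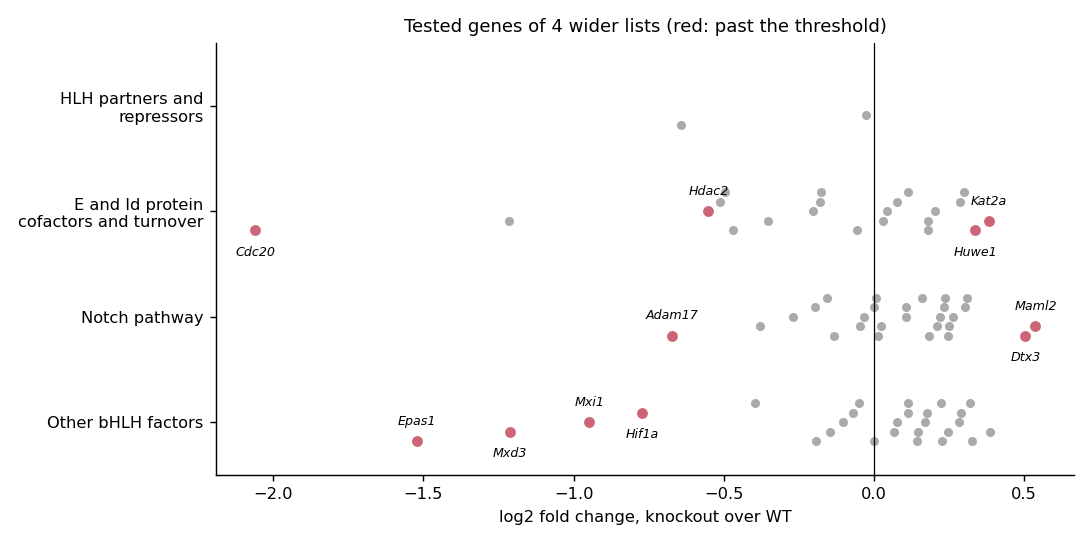
Log2 fold change (knockout over WT) of tested genes in the 4 wider lists, with called genes in red and named (vertical offsets within a list carry no meaning). Cdc20 at -2.06 and Epas1 at -1.52 lie farthest from 0, and most genes of the Notch pathway lie within 0.5 of it.

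Genes most like Id2 over the 6 libraries, by Pearson's r of log2(FPKM + 1) among 7479 genes with a mean of at least 5 FPKM, were Stard4 (r = 0.998), which encodes a cholesterol transfer protein, and Rom1 (0.997). Stard4 fell by a log2 fold change of 0.78 and Rom1 by 2.26, and Rom1 had 13.2, 8.59 and 9.74 FPKM in WT against 1.98, 2.56 and 2.12 in knockout, highest where Id2 was highest. The genes most like Id3 were Ccnl1 (0.989), which encodes a cyclin of RNA processing, Snhg8 (0.986), a noncoding host gene of a small nucleolar RNA, and Paxx (0.986), which encodes a factor of DNA end joining. None of these 3 was called (adjusted p = 0.05001, 0.0605 and 0.299, edgeR), though Ccnl1 passed in 7 of 14 alternatives, DESeq2 among them (0.0107), and without WT replicate 1 both Ccnl1 (0.0144) and Snhg8 (0.0142) passed. The 6 points fall into the 2 genotypes and share their libraries, so a high r is common and is given as a description.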

How the data were processed

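RNA of sorted CD8+ T cells was sequenced in 6 libraries, 3 WT and 3 knockout. CASAVA, Bowtie2, RSEM and the build mm10 appear, unversioned, in the submitters' processing notes. The deposited tables hold an expected count per gene, per the file headers, which is an estimate and need not be whole. The authors also deposited FPKM, which are scaled by library size and by transcript length, and the transcript length. The sources used here do not state whether strand was used. A gene missing from a table was taken as 0.

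Genes were matched across tables by NCBI number, and 16707 of 16749 had a RefSeq symbol. Expected counts were rounded, scaled by TMM and tested two-sided with edgeR 4.0.16 (quasi-likelihood, R 4.3.3), with Benjamini-Hochberg adjustment over 10890 genes. The filter left out 5859 genes. The standard error is the log2 fold change divided by the square root of F. Scripts were tested on simulated data. Alternatives were DESeq2 1.42.0, its size factors, limma 3.58.1 on log2(FPKM + 1) and with a pseudocount of 0.1, an FPKM minimum of 5 or none, a block for replicate number, the log2 summed FPKM of 14 B cell markers as a covariate, and each library left out.

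Named genes were the 9 members, up to 4 genes per direction with the smallest p among those called in each list, and the 3 genes most like Id2 and Id3. Ep300, Notch1, Notch2, Rbpj, Hes6, Lyl1, Bhlhe41, Mga, Ncoa2, Ncoa3 and Myc were named after their values were seen. A gene that these rules would name is not reported here. The members, lists and markers were chosen with earlier results of these data known. Python 3.11.15 (pandas 2.3.3, matplotlib 3.10.9) was used for tables and plots.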

Additional observations from a re-analysis of the deposited data

How the results depend on the processing

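Over 121 refits of the 9 genes, 0 changed direction, 5 lost a call (all Hes1) and 7 gained one (5 for Tcf3 and 2 for Tcf4). The number of the 9 called lower was 2 with an FPKM minimum of 5, which Msc and Hes1 did not meet. It was 3 to 4 without 1 library. Without knockout replicate 1 it was 4 because Tcf3 passed where Hes1 did not. Over all genes, 342 were higher and 955 lower, 84 to 480 and 517 to 1082 without 1 library. The lowest of both came without knockout replicate 3. Without WT replicate 3 they were 121 and 564, and 210 and 213 were higher without WT replicate 2 and knockout replicate 1.

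Among cofactors, the number higher was 0 with limma at either pseudocount or with the replicate block, 1 with the B cell covariate and 0 to 2 without 1 library. The number lower was 5 with DESeq2 and 1 to 4 without 1 library. Among Notch genes, the number higher was 1 with the block or the B cell covariate and 0 to 2 without 1 library, and the number lower was 0 with limma at a pseudocount of 0.1 and 0 to 1 without 1 library. Among other basic helix-loop-helix genes, 1 was higher with DESeq2, its size factors or the FPKM minimum of 5 (Ncoa3), and 0 to 1 without 1 library (Myc). The number lower was 2 with that minimum. Of 17 other genes under the naming rule, 0 changed direction in 236 refits, 40 refits lost a call and 12 gained one.

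Replicate numbers are shared by the groups, but deviations of same-numbered libraries correlated at only 0.072, 0.0395 and -0.0524, and not every library correlated best with its own number, so the numbers were not taken as pairs. With the replicate block 295 genes were higher and 888 lower, and 5 of the 9 genes were lower, with Tcf3 at an adjusted p of 0.0403 (edgeR). Few counts limit what can be said of Id1, Tcf4, Msc and Hes1.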
